A study of Mus musculus with 14 samples.

Results

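The Serpina3 genes of the mouse form an array of closely related serine protease inhibitors on chromosome 12, and 7 of them, Serpina3c, Serpina3f, Serpina3g, Serpina3i, Serpina3k, Serpina3m and Serpina3n, were followed here through 14 liver libraries. The files list 17656 genes, 10 of them Serpina3 genes. The 7 members were chosen by symbol with the measured values of these libraries in view, in particular the level of each gene in the saline livers of both genotypes, so the saline difference between genotypes is given below with no p-value, and its count of calls stands only beside that of all genes, with nothing read from it. The 3 that were left out never reached 1 TPM (a length-corrected share of all transcripts in a library, scaled to the same total in each). Their highest values were 0.23 TPM for Serpina3a, 0.39 TPM for Serpina3b and 0.79 TPM for Serpina3j. The lowest value of any member in a library was 0.10 TPM, and each member exceeded 1 TPM in every library of at least 3 of the 4 groups.

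The livers came from male C57BL/6 mice of about 8 weeks that were wild-type (WT) or carried a Ythdf1 knockout (KO) made by CRISPR/Cas9, which removes a reader of m6A-marked RNA from all cells of the body. WT littermates served as controls. Mice received saline or concanavalin A (ConA, a lectin that activates T cells and causes immune-mediated hepatitis) at 8 mg/kg into a vein, and whole liver was taken at 8 h. The groups were WT saline (n = 3), KO saline (n = 3), WT ConA (n = 4) and KO ConA (n = 4). The labels number the libraries of a group as replicates, and the study's methods describe independent biological replicates.

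Serpins trap proteases. A flexible reactive centre loop is offered as bait, the protease cleaves it, and the inhibitor then snaps into a new fold with the protease bound to it. Humans have a single gene of this kind, SERPINA3, which encodes alpha-1-antichymotrypsin, a plasma protein that hepatocytes secrete in the acute phase under interleukin 6, STAT3 and interleukin 1. In the mouse the gene was duplicated many times, and the copies differ most in the loop that meets the protease. Serpina3k (contrapsin) is an abundant plasma serpin of the resting liver, Serpina3m is its close relative, Serpina3c is known as a kallikrein-binding protein, Serpina3n is an acute-phase inhibitor known to block granzyme B, and Serpina3g (Spi2A) is an intracellular inhibitor of cathepsins that interferon gamma induces.

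Some libraries need naming before any result. WT ConA replicate 4 stood apart from the other WT ConA libraries for several members: its level was 22.0 times the mean of the other 3 for Serpina3c, 7.65 times for Serpina3i, 3.89 times for Serpina3g and 1.56 times for Serpina3m, but 0.888 to 0.982 times for Serpina3f, Serpina3k and Serpina3n. Whether this library differs from the others in origin or label was not tested. The members' responses, levels and shares, and the counts over gene lists, that rest on WT ConA are therefore given with and without it. WT ConA replicate 3 and KO ConA replicate 3 also lay farther from their groups' other libraries over all genes, with median absolute log2 ratios of 0.435 to 0.469 and 0.285 to 0.444, against 0.196 to 0.214 and 0.131 to 0.231 among the others, and their log2 median ratios to the geometric mean, used where libraries were rescaled, were -0.29 and -0.24, the lowest of the 14. WT saline replicates 2 and 3 were closer to each other than any other pair of replicates, with a median absolute log2 ratio of 0.0820 over 8743 genes against 0.131 to 0.469 for the other 17 pairs, so the fits that use WT saline were also run with this pair averaged. Whether the pair comes from separate animals or extractions was not tested. The TPM of Ythdf1 itself was 12.03 to 13.92 for WT saline, 18.4 to 20.8 for KO saline, 18.7 to 25.6 for WT ConA and 15.5 to 26.2 for KO ConA. A whole-gene value does not show whether a part of the gene was deleted, and the genotypes rest on the labels. Hepatocyte markers (6 of 6 in the files) summed to 103008 to 131035 TPM in saline livers and 50180 to 77781 TPM after ConA. That sum was carried by Alb, Ttr and Apoa1. Hnf4a, alone of the 6, did not fall (136 to 164 TPM with saline, 141 to 239 TPM after ConA). Neutrophil markers (6 of 6) summed to 5.27 to 11 TPM and 315 to 944 TPM, a sum carried by S100a8 and S100a9. Retnlg (0 to 0.29 and 17.15 to 41.7 TPM), Cxcr2 (0.72 to 1.34 and 2.79 to 5.68 TPM) and Csf3r (0.52 to 1.39 and 3.25 to 8.7 TPM) rose too. Ly6g, at 0.57 to 5.04 TPM and 0.18 to 2.47 TPM, did not. In the same order, T cell markers (7 of 8) summed to 1.51 to 3.22 and 3.09 to 8.66 TPM, and Kupffer cell markers (6 of 6) to 25.3 to 105 and 4.74 to 28.4 TPM. NK cell markers (4 of 4) were at 0.71 to 1.79 and 1.46 to 5.29 TPM, those of monocyte-derived macrophages (4 of 4) at 0.49 to 1.52 and 11.3 to 51.8 TPM, of sinusoidal endothelial cells (6 of 6) at 14.2 to 42.4 and 12.2 to 37.1 TPM, of stellate cells (5 of 5) at 15.1 to 95.4 and 20.7 to 97.3 TPM, and of cholangiocytes (4 of 4) at 46.0 to 88.8 and 17.0 to 53.7 TPM. These saline ranges pool the genotypes, and some sums differed between WT saline and KO saline without overlap. Kupffer cell markers were at 59.75 to 105 TPM (WT) and 25.3 to 56.1 TPM (KO). In that order, T cell markers were at 1.51 to 2.11 and 2.64 to 3.22 TPM. Those of sinusoidal endothelial cells were at 14.2 to 23.5 and 25.1 to 42.4 TPM, and of cholangiocytes at 46.0 to 56.6 and 83.1 to 88.8 TPM. The other sums overlapped. The part of these cells in the results below, the saline difference between genotypes included, was not tested. In whole liver, fewer cells of a type and less RNA per cell cannot be told apart.

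All 7 members matched RefSeq (GRCm38.p6, the build of the files) by symbol and gene ID. Together they span 267 kb, with Serpina3c (gene ID 16625) at chr12:104146907-104153929 on the minus strand and the other 6 on the plus strand. Those are Serpina3f (238393) at chr12:104214544-104221129, Serpina3g (20715) at chr12:104236147-104241939, Serpina3i (628900) at chr12:104263045-104269509, Serpina3k (20714) at chr12:104338486-104345739, Serpina3m (20717) at chr12:104387157-104394259 and Serpina3n (20716) at chr12:104406646-104414334. The array holds 14 Serpina3 genes, 4 of which are pseudogenes that were not analysed here.

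The coding sequences of the members were 80.2% to 91.7% identical over the 21 pairs (median 84.3%), closest for Serpina3k with Serpina3m (91.7%) and Serpina3f with Serpina3i (91.2%). The codons of the reactive centre loop were less alike, at 47.6% to 84.1% (median 57.9%). They are shown because the loop is where these inhibitors differ in what they meet. Each line holds the coding strand from GENCODE vM21 transcripts, with the conserved hinge in lower case and the variable loop, up to the serpin signature that follows it, in capitals.
Serpina3c: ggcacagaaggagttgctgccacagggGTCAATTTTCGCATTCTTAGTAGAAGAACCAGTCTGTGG
Serpina3f: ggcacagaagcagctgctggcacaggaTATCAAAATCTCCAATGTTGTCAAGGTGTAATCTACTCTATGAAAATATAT
Serpina3g: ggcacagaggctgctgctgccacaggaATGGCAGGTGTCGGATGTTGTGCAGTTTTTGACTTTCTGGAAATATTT
Serpina3i: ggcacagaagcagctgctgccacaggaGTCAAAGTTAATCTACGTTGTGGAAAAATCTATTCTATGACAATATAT
Serpina3k: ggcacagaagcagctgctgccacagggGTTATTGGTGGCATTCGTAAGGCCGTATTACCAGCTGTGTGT
Serpina3m: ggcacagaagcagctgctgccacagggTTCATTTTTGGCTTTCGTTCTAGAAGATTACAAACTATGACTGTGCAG
Serpina3n: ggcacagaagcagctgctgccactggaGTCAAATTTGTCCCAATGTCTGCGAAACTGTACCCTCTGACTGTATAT
The variable stretch ran from 13 codons in Serpina3c to 17 in Serpina3f. The GENCODE model used for Serpina3g is short, with 744 coding bases against 1224 to 1335 in the other 6.

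Such similarity matters for short reads. Of all 50-base stretches of each transcript (the read length of the study), 95.7% in Serpina3c, 93.1% in Serpina3n, 89.3% in Serpina3f, 86.0% in Serpina3k, 84.6% in Serpina3i, 84.0% in Serpina3g and 80.9% in Serpina3m occurred in no other gene of GENCODE vM21. The most shared pair was Serpina3m and Serpina3k, with 16.0% of the stretches of Serpina3m and 12.8% of those of Serpina3k in common. Serpina3g and Serpina3i shared most with the pseudogene Serpina3h (8.67% and 9.21%). How reads from shared stretches were divided between the genes can move a member's level, most of all that of Serpina3m beside the much more abundant Serpina3k, and this was not tested.

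**Figure D1:**
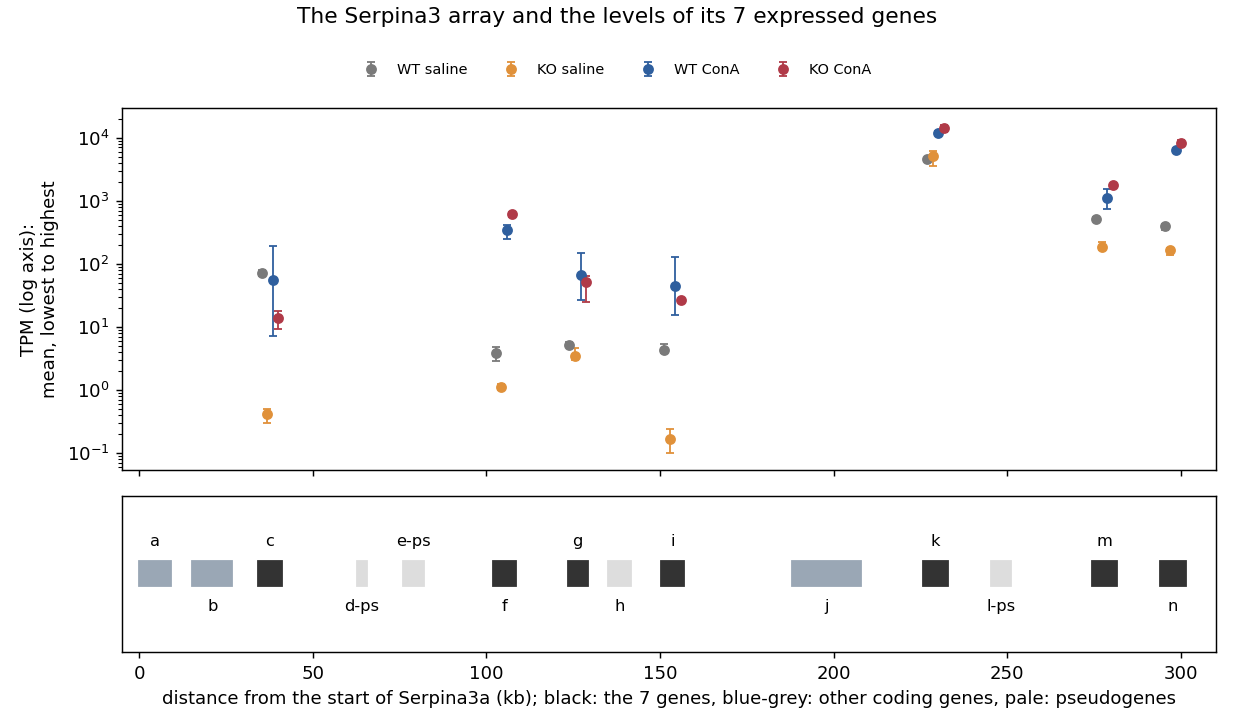
Upper panel, mean TPM of each of the 7 genes in the 4 groups on a log axis, with bars from the lowest to the highest library. Lower panel, the 14 genes of the Serpina3 array by distance in kb from the start of Serpina3a. Serpina3k, Serpina3m and Serpina3n, at the far end, had the highest levels in all groups, and the KO saline points of Serpina3c and Serpina3i lie below 1 TPM.

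In saline liver the levels spanned more than 3 orders of magnitude on the TPM scale. WT saline was led by Serpina3k with a mean of 4655 ± 56.7 TPM (SD, n = 3), followed by Serpina3m (521 ± 37.8), Serpina3n (397 ± 46.4) and Serpina3c (70.6 ± 7.24), none of which overlapped with the next in order. Serpina3g (5.2 ± 0.488), Serpina3i (4.39 ± 0.861) and Serpina3f (3.89 ± 0.967) came last, and the ranges of neighbours in that order overlapped. In KO saline the order was Serpina3k (5209 ± 1457), Serpina3m (185 ± 31.9), Serpina3n (164 ± 20.4), Serpina3g (3.52 ± 0.930), Serpina3f (1.11 ± 0.127), Serpina3c (0.423 ± 0.108) and Serpina3i (0.167 ± 0.0702). Here only Serpina3m and Serpina3n overlapped with each other as neighbours.

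Serpina3c parted the saline groups most widely. It stood at 78.8, 67.9 and 65.1 TPM in WT saline replicates 1 to 3 and at 0.47, 0.50 and 0.30 TPM in KO saline. The ratio of the means was 167, and the groups lay far apart.

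Serpina3i followed, with 5.38, 3.97 and 3.82 TPM in WT saline against 0.10, 0.16 and 0.24 TPM in KO saline, a ratio of means of 26.3. Serpina3f, with 2.85, 4.07 and 4.76 TPM in WT saline and 1.01, 1.25 and 1.06 TPM in KO saline, differed by a ratio of 3.52. For the plasma serpin Serpina3m the values were 477, 546 and 538 TPM in WT saline and 165, 169 and 222 TPM in KO saline, a ratio of 2.81. Serpina3n, the acute-phase member, was at 346, 435 and 412 TPM in WT saline and 141, 179 and 172 TPM in KO saline, a ratio of 2.42. These 4 genes were lower in KO without overlap of the groups, as were 29.2% of all genes tested. The low levels of Serpina3c and Serpina3i in KO saline rest on an unknown number of reads, since TPM keeps no depth.

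Serpina3g and Serpina3k differed least. Serpina3g was at 4.92, 5.76 and 4.91 TPM in WT saline and 4.59, 2.96 and 3.0 TPM in KO saline, a ratio of 1.48 without overlap. Serpina3k, the most abundant member, was at 4639, 4608 and 4718 TPM in WT saline and 6034, 3526 and 6066 TPM in KO saline. Its KO libraries lay on both sides of the WT libraries.

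On the log2(TPM + 1) scale, which understates the change of low genes, the difference KO saline minus WT saline was -5.65 for Serpina3c, -2.20 for Serpina3i, -1.49 for Serpina3m, -1.27 for Serpina3n, -1.20 for Serpina3f, -0.47 for Serpina3g and 0.12 for Serpina3k. Across all genes tested the median was -0.10. By limma with Benjamini-Hochberg adjustment, 5 of 7 members were called lower, beside 12.9% of 10459 genes called lower in that comparison. Nothing is read from this count, since the members were selected on it, and Serpina3c and Serpina3i passed the filter on low values through WT saline alone. With WT saline replicates 2 and 3 averaged, 4 of the 7 were called and the calls over all genes went from 2009 to 49. Of the 2009 calls 32.8% were higher in KO saline, and in rescaled libraries, where the median of all genes moved up by 0.10, the share was 61.7%.

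**Figure D2:**
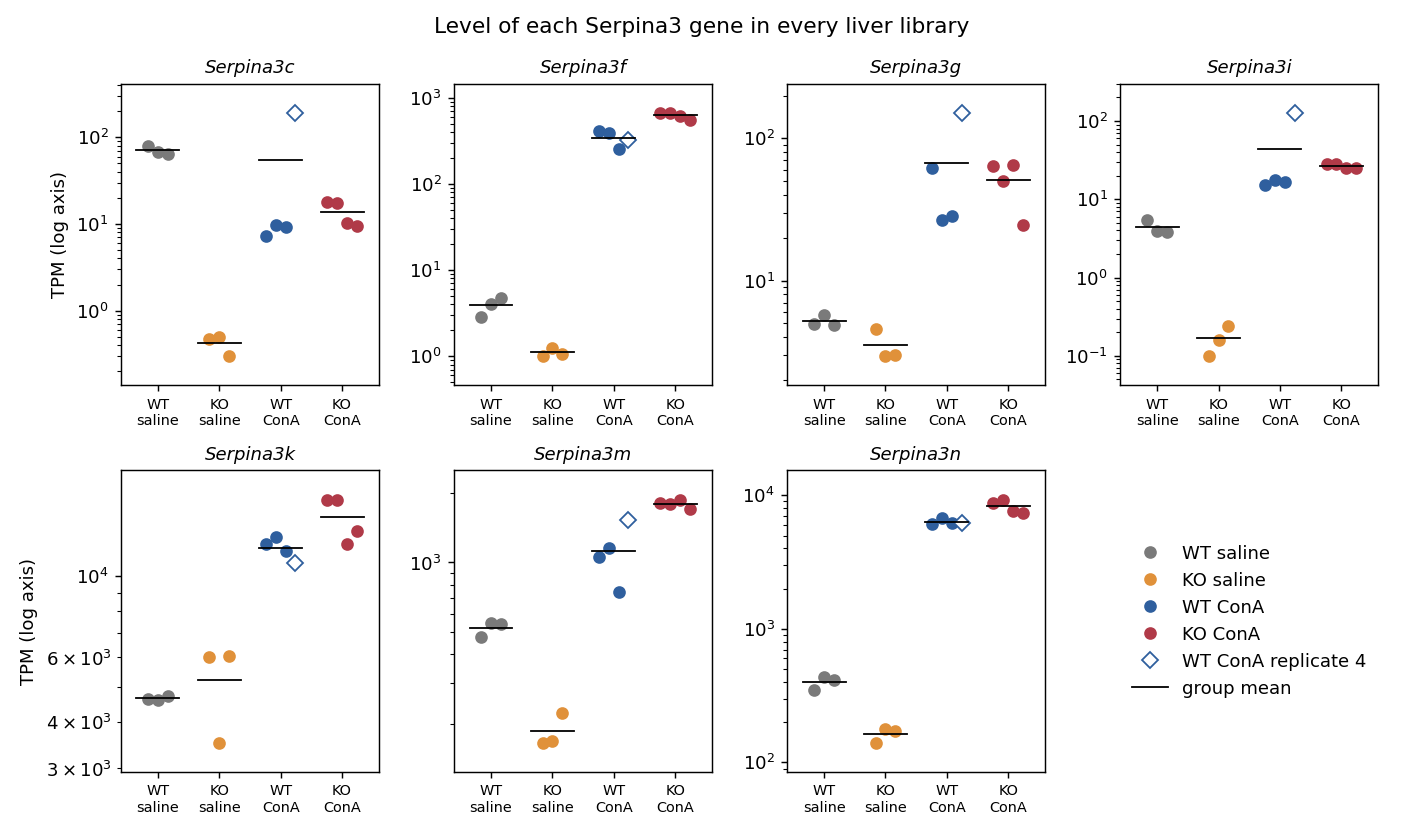
TPM of each member in each of the 14 libraries, 1 panel per gene, on log axes. Points are libraries, black lines are group means, and the open diamond is WT ConA replicate 4. For Serpina3c and Serpina3i the diamond (192 and 127 TPM) lies far above the other 3 WT ConA libraries, while for Serpina3f, Serpina3k and Serpina3n it lies with them or near them.

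After ConA, 6 of 7 members were called higher in WT liver, beside 22.0% of 10768 genes called higher and 31.0% called lower, and the median log2 fold change of the members was 2.44 beside -0.07 over all genes. Without WT ConA replicate 4 the same count of 6 was called higher, beside 20.0% of 10608 genes, and Serpina3c was called lower, beside 30.5%. In KO liver 7 of 7 were called higher, beside 33.9% of 10988 genes called higher and 30.7% called lower, with a median log2 fold change of 3.45 beside 0.07. Serpina3c and Serpina3i passed the filter in the KO comparison through the ConA libraries alone, so their calls there carry no weight as a count. Of the 5 that were at 1 TPM or more in both KO groups, 5 were called higher. The WT and KO comparisons use the saline libraries that were in view when the members were chosen. Their p-values for members, here and below, are therefore not independent of that choice.

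Serpina3n, the granzyme B inhibitor, rose in both genotypes. It was at 6071, 6771, 6212 and 6235 TPM in WT ConA and at 8797, 9300, 7587 and 7412 TPM in KO ConA, so every ConA library was above every saline library. The log2 fold change was 3.99 in WT (SE 0.122, adjusted p = 8.63e-08, limma) and 5.65 in KO (SE 0.137, adjusted p = 4.04e-10). In TPM the means rose 15.9-fold and 50.5-fold. Without WT ConA replicate 4 the WT value was 4.0, or 16-fold.

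Serpina3f rose most. From means of 3.89 and 1.11 TPM in saline it reached 416, 386, 252 and 321 TPM in WT ConA and 660, 670, 618 and 549 TPM in KO ConA. All ConA libraries were above all saline libraries. The log2 fold change was 6.13 in WT (SE 0.205, adjusted p = 1.24e-07, limma) and 8.21 in KO (SE 0.118, adjusted p = 8.87e-12), or 88.3-fold and 564-fold in mean TPM. Without WT ConA replicate 4 the WT value was 6.16, or 90.2-fold.

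The interferon-inducible member Serpina3g was at 61.5, 26.6, 28.6 and 151 TPM in WT ConA and 63.8, 50.5, 64.8 and 24.8 TPM in KO ConA. Its spread among ConA libraries was wide in both genotypes, yet the lowest ConA library exceeded the highest saline library. The log2 fold change was 3.09 in WT (SE 0.516, adjusted p = 8.70e-04, limma), 2.58 without WT ConA replicate 4 (adjusted p = 2.17e-04), and 3.45 in KO (SE 0.298, adjusted p = 2.86e-06). The summed neutrophil markers, at most 11 TPM in saline livers and at least 315 TPM after ConA, rose at the same step in both genotypes. That sum was carried by S100a8 and S100a9. Retnlg, Cxcr2 and Csf3r rose too, while Ly6g showed no such rise. Within each genotype the sums of T cell and monocyte-derived macrophage markers rose too, and that of Kupffer cell markers fell. Chil3 made up most of the macrophage sum after ConA, and Ly6c2 rose. Cx3cr1 fell, from 0.12 to 0.54 TPM with saline to 0 to 0.06 TPM after ConA. Only 2 T cell markers reached 1 TPM in at least 3 libraries. Cd8b1 and Lck rose, but Cd4 did not (0.05 to 0.27 and 0 to 0.21 TPM). Of the Kupffer cell markers, Marco did not fall (0.71 to 8.16 and 1.24 to 8.48 TPM). The other members that rose share the step from saline to ConA, and the part of these cells in the level of Serpina3g was not tested.

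Serpina3i stood at 15.4, 17.8, 16.7 and 127 TPM in WT ConA and at 28.1, 28.3, 25.0 and 25.4 TPM in KO ConA. The KO libraries and the first 3 WT libraries were each tightly grouped, and WT ConA replicate 4 was alone above both. The log2 fold change was 2.44 in WT (SE 0.642, adjusted p = 0.0104, limma), 1.72 without that library (SE 0.166, adjusted p = 8.72e-05). In KO it was 4.57, a value given as a description, since the gene passed the filter there through the ConA libraries alone. With no filter on low values the WT adjusted p was 0.0507, no longer under the threshold.

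Among the abundant plasma serpins, Serpina3k was at 12182, 12774, 11634 and 10828 TPM in WT ConA and 16091, 16041, 12207 and 13212 TPM in KO ConA. It rose by 1.35 on the log2 scale in WT (SE 0.114, adjusted p = 1.60e-05, limma) and by 1.50 in KO (SE 0.213, adjusted p = 1.05e-04), or 2.55-fold and 2.76-fold in mean TPM. The WT value was 1.39, or 2.62-fold, without WT ConA replicate 4. Its relative Serpina3m was at 1054, 1152, 744 and 1535 TPM in WT ConA and 1816, 1785, 1875 and 1708 TPM in KO ConA. Serpina3m rose by 1.06 in WT (SE 0.216, adjusted p = 0.00271), by 0.89 without WT ConA replicate 4 (adjusted p = 0.00332), and by 3.28 in KO (SE 0.128, adjusted p = 1.14e-08). Both genes were higher in every ConA library than in any saline library of the same genotype. So were Serpina3n, Serpina3f and Serpina3g, beside 23.3% of all genes tested in WT and 32.8% in KO.

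Serpina3c was the exception in WT liver. It was at 7.34, 9.68 and 9.24 TPM in WT ConA replicates 1 to 3 and at 192 TPM in replicate 4, against 65.1 to 78.8 TPM in WT saline. The first 3 values were below all saline libraries and the last was above them. With all 4 libraries the log2 fold change was -1.80 (SE 0.952, 95% interval -3.95 to 0.35, adjusted p = 0.142, limma) and was not called. Without replicate 4 it was -2.88 (SE 0.154, adjusted p = 5.44e-06), and the mean in WT saline was 8.06 times that in the 3 ConA libraries. In KO liver the same gene went the other way, from a mean of 0.423 TPM to 17.9, 17.3, 10.2 and 9.47 TPM, a log2 fold change of 3.32 that is likewise a description. After ConA the KO libraries were thus at 9.47 to 17.9 TPM and WT replicates 1 to 3 at 7.34 to 9.68 TPM, ranges that overlapped.

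**Figure D3:**
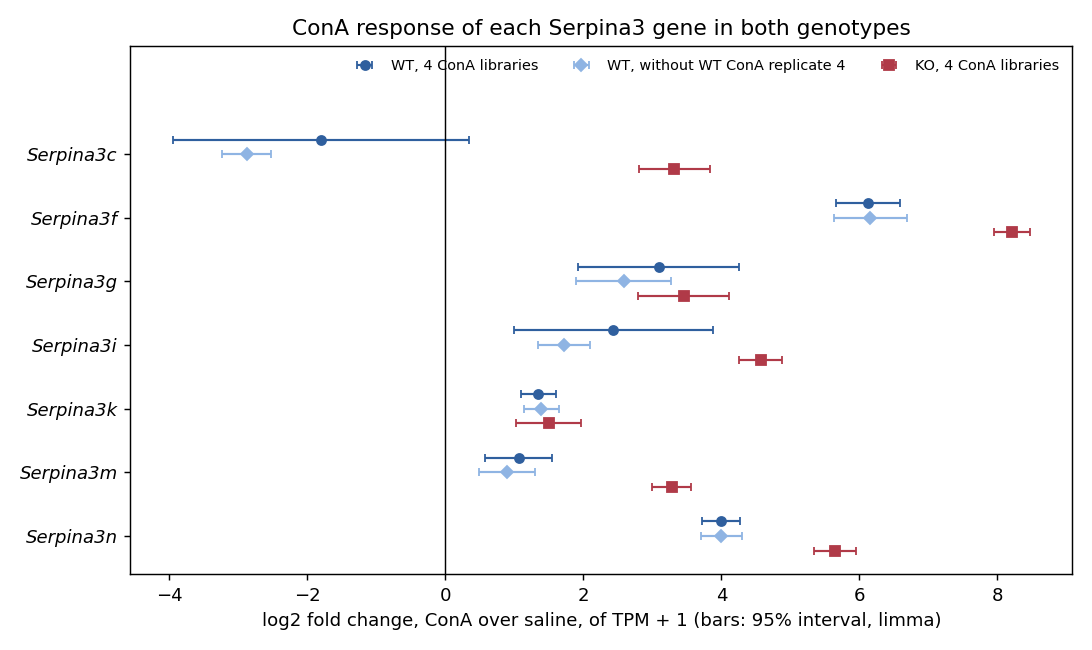
Log2 fold change of TPM + 1, ConA over saline, for each member in WT liver with all 4 ConA libraries (dark blue circles), in WT liver without WT ConA replicate 4 (light blue diamonds) and in KO liver (red squares). Bars are 95% intervals from limma. Serpina3c lies below 0 in WT (-1.80, and -2.88 without the library) and at 3.32 in KO, and the interval of the WT value with all 4 libraries crosses 0. The KO values of Serpina3c and Serpina3i are a description, since both passed the filter through the ConA libraries alone.

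The change from saline to ConA can be set side by side in both genotypes. The KO minus WT difference of the log2 fold changes was 5.12 for Serpina3c (6.20 without WT ConA replicate 4), 2.22 for Serpina3m (2.39), 2.13 for Serpina3i (2.85), 2.08 for Serpina3f (2.05), 1.66 for Serpina3n (1.65), 0.36 for Serpina3g (0.87) and 0.15 for Serpina3k (0.11). These values contain the saline difference on which the members were selected, and no test is given.

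The direct comparison of KO ConA with WT ConA does not contain that saline difference. The members were still chosen with the values of these libraries in view, so its p-values for members are not independent of that choice. Of the 7 members 1 was called higher, Serpina3f, beside 0.342% of 10519 genes. Over all genes 80.0% of the calls were higher in KO ConA, and 58.6% in rescaled libraries. The log2 difference of Serpina3f was 0.88 (SE 0.162, adjusted p = 0.049996, limma), a value just under the threshold of 0.05. All 4 KO libraries (549 to 670 TPM) were above all 4 WT libraries (252 to 416 TPM), and the ratio of means was 1.82. Without WT ConA replicate 4 the difference was 0.86 and the adjusted p was 0.0792. The call was lost when any of 7 of the 8 libraries was left out, all but WT ConA replicate 1.

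The other 6 did not pass the threshold. Serpina3m was 0.73 higher in KO ConA (95% interval 0.31 to 1.14, adjusted p = 0.0990, limma) and its groups did not overlap. With all 14 libraries in the fit the adjusted p was 0.0233. Serpina3n differed by 0.38 (0.11 to 0.66, adjusted p = 0.165), again without overlap. In 6.37% of all genes tested the KO ConA libraries lay above the WT ConA libraries in this way. Serpina3k differed by 0.27 (-0.03 to 0.58, adjusted p = 0.359). Without WT ConA replicate 4 the differences were 0.89, 0.38 and 0.23, with adjusted p values of 0.0633, 0.239 and 0.498.

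For the 3 genes in which WT ConA replicate 4 was farthest from the others, the sign turned on that library. Serpina3c differed by -0.53 (95% interval -2.36 to 1.29, adjusted p = 0.804, limma) and by 0.55 without it (adjusted p = 0.324). For Serpina3g the difference was -0.11 (-1.21 to 0.99, adjusted p = 0.936) and 0.40 without it (adjusted p = 0.638), and it was also above 0, at 0.19, without KO ConA replicate 4. Serpina3i gave -0.07 (-1.27 to 1.14, adjusted p = 0.968) and 0.65 without it (adjusted p = 0.0911), and without it the KO libraries (25.0 to 28.3 TPM) were all above the WT libraries (15.4 to 17.8 TPM). The share of all genes that parted in this way without that library was not computed.

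After ConA the order of the levels changed. In WT ConA it was Serpina3k (11854 ± 827 TPM, SD, n = 4), Serpina3n (6323 ± 308), Serpina3m (1121 ± 326) and Serpina3f (344 ± 73.2), none overlapping with the next, and then Serpina3g, Serpina3c and Serpina3i, whose ranges overlapped. Without WT ConA replicate 4 those 3 came in the order Serpina3g (38.9 TPM), Serpina3i (16.6 TPM) and Serpina3c (8.75 TPM), with no overlap, and the leading 4 kept their order. KO ConA had the same leading 4, at 14388 ± 1981, 8274 ± 921, 1796 ± 69.7 and 624 ± 55.0 TPM, followed by Serpina3g (51.0 ± 18.6) and Serpina3i (26.7 ± 1.74), which overlapped, and Serpina3c (13.7 ± 4.51).

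The 7 genes together took 0.555% to 0.575% of all TPM in the WT saline libraries and 0.388% to 0.646% in the KO saline libraries, which grew with ConA to 1.89% to 2.11% (WT) and 2.24% to 2.79% (KO). The make-up of this pool also differed after ConA. Serpina3k made up 81.3% to 83.5% of it in WT and 90.9% to 95.1% in KO with saline, but 55.8% to 61.6% in WT and 54.5% to 58.6% in KO with ConA. The lowest of these WT values was that of WT ConA replicate 4, and the other 3 were at 60.4% to 61.6%, above the KO libraries. Serpina3n went from 6.22% to 7.67% (WT) and 2.22% to 4.61% (KO) with saline to 30.7% to 32.9% and 32.0% to 33.9% after ConA. The share of Serpina3f rose from at most 0.0828% in any saline library to 1.33% to 2.10% (WT) and 2.39% to 2.76% (KO) after ConA. The saline pools thus differed between genotypes in make-up, and after ConA the share of Serpina3n overlapped between genotypes, while that of Serpina3k did so only with WT ConA replicate 4.

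**Figure D4:**
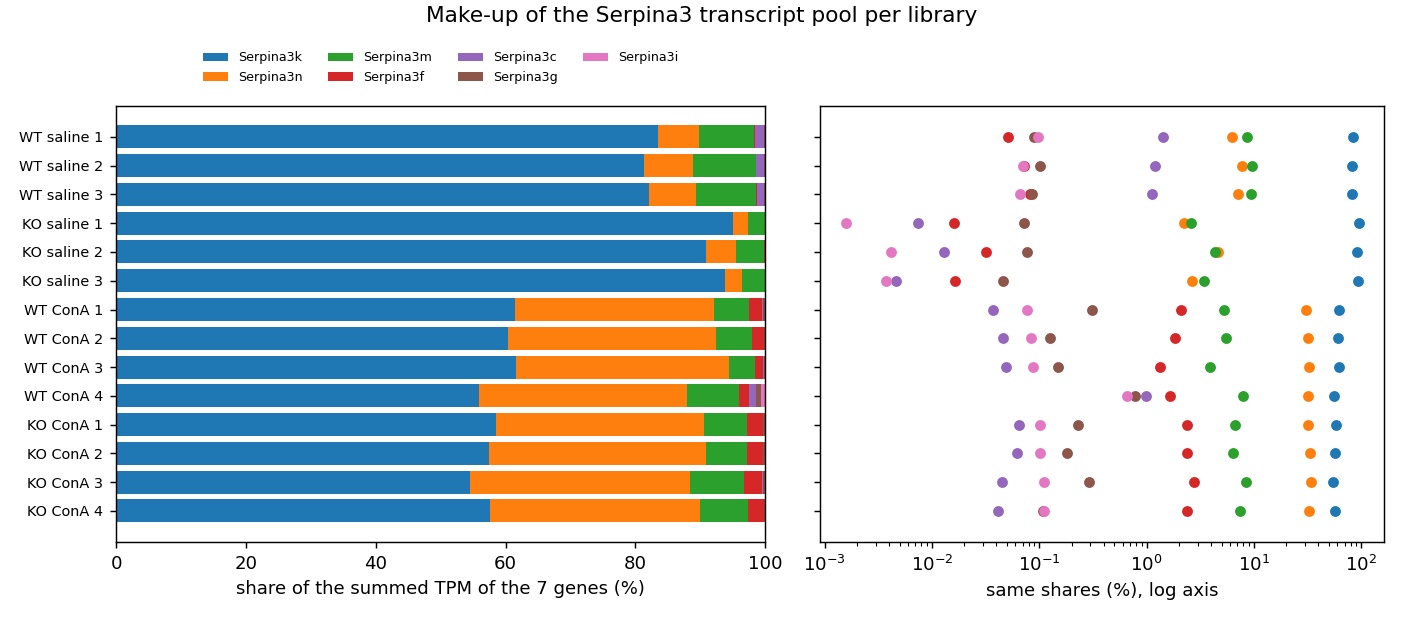
Share of the summed TPM of the 7 genes that each gene took in each library, as stacked bars from 0 to 100% (left) and as points on a log axis (right). Serpina3k takes a smaller share and Serpina3n a larger share in all 8 ConA libraries than in any saline library, and WT ConA replicate 4 shows larger shares of Serpina3c, Serpina3g and Serpina3i than the other ConA libraries.

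Ratios within a library do not depend on its scaling. Serpina3n over Serpina3k with saline was 0.0745 to 0.0944 (WT) and 0.0233 to 0.0507 (KO), and with ConA it was 0.498 to 0.576 (WT) and 0.547 to 0.622 (KO). Serpina3c over Serpina3m with saline was 0.121 to 0.165 (WT) and 0.00135 to 0.00296 (KO). In WT ConA replicates 1 to 3 it was 0.00696, 0.00840 and 0.0124, in replicate 4 it was 0.125, and in KO ConA it was 0.00541 to 0.00986. WT ConA replicate 4 was thus in the range of the WT saline libraries for this ratio, while its Serpina3n over Serpina3k, 0.576, was in the range of the ConA libraries. A ratio from the neighbouring Serpina1 family, which encodes alpha-1-antitrypsin and was picked after its values were seen, split the libraries the same way: Serpina1a over Serpina1d was 0.284 to 0.304 in WT saline and 0.270 in WT ConA replicate 4, against 0.859 to 1.05 in WT ConA replicates 1 to 3, 0.905 to 1.11 in the KO saline libraries and 0.748 to 0.926 in KO ConA. What sets these libraries apart was not tested.

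**Figure D5:**
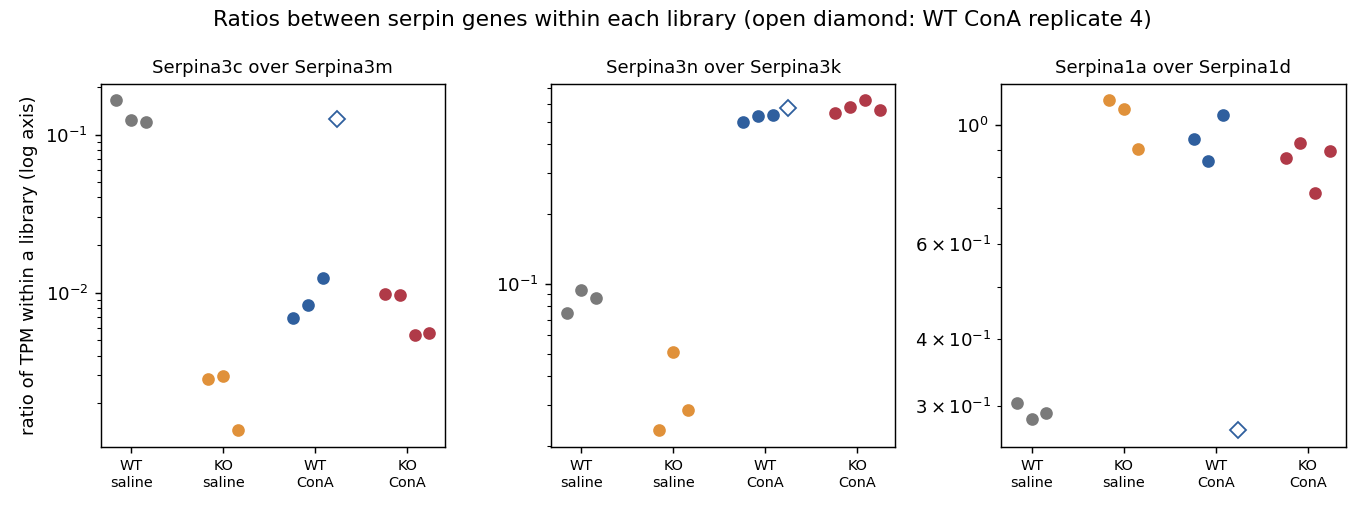
Ratios of TPM between serpin genes within each library on log axes, by group, with WT ConA replicate 4 as an open diamond. For Serpina3c over Serpina3m (left) and Serpina1a over Serpina1d (right) the diamond lies beside the WT saline libraries, and for Serpina3n over Serpina3k (middle) it lies among the ConA libraries.

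The sequences before the gene starts were compared because Serpina3c and Serpina3n, which differed so much in these livers, are close copies there. RefSeq (GRCm38.p6) gave a start region for 5 of the 7 members, and none for Serpina3k and Serpina3m. The 250 bases before the start are printed in the direction of transcription. The start is that of RefSeq's start regions, which for Serpina3c, Serpina3i and Serpina3n lies 57, 77 and 62 bases inside the gene span given above, and distances are counted from it. Capitals mark matches on either strand to the STAT motif TTCNNNGAA, the kappaB motif GGNNTTTCC, the C/EBP motif TTGCNNAA or the IRF motif AAANNGAAA. No match overlapped another. The first pair is Serpina3c at chr12:104153873-104154122 (minus strand) and Serpina3n at chr12:104406458-104406707 (plus strand).
Serpina3c: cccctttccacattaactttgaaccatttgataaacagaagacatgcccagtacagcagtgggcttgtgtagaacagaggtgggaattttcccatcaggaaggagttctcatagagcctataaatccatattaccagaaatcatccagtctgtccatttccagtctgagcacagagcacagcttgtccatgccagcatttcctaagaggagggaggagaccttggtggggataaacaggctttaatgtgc
Serpina3n: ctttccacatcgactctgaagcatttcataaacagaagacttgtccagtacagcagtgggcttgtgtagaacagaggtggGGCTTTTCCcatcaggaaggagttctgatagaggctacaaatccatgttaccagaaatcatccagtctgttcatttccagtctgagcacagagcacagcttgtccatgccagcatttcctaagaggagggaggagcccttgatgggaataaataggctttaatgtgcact
These windows were 92.7% identical, more than any of the other 9 pairs (59.5% to 82.6%). Serpina3n held a kappaB match at 170 bases before the start, and Serpina3c held no match to the 4 motifs as spelled here. At the same place Serpina3c reads ggaattttcc, which differs from the kappaB spelling by an added base, so this contrast rests on the spelling chosen.

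The 3 genes that started lowest in WT saline are shown for the same reason: Serpina3f at chr12:104214294-104214543, Serpina3g at chr12:104235897-104236146 and Serpina3i at chr12:104262872-104263121, all on the plus strand. RefSeq lists a second start for Serpina3f, not shown.
Serpina3f: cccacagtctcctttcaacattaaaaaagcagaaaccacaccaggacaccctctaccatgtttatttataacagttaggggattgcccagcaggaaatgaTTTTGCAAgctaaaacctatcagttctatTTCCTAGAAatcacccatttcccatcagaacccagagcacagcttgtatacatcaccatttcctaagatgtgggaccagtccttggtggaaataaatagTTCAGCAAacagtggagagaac
Serpina3g: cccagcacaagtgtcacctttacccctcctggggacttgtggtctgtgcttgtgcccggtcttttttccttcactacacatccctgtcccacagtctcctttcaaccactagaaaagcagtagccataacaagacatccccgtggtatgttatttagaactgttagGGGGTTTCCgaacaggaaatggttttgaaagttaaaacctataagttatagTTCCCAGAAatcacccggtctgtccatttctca
Serpina3i: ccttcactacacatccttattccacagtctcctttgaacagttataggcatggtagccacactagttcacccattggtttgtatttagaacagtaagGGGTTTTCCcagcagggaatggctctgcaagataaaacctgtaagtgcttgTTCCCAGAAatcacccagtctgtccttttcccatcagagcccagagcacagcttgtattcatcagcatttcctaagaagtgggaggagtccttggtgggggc
Each of the 3 held a STAT match, at 121, 33 and 102 bases before the start. Serpina3g and Serpina3i also held a kappaB match, and Serpina3f held C/EBP matches at 150 and 22 bases. Among 32851 mouse start regions of this length, 7.02% held the STAT motif, 4.93% the kappaB motif, 9.56% the C/EBP motif and 9.37% the IRF motif. These matches describe letters in a window and not binding.

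Outside the Serpina3 genes, the genes whose log2(TPM + 1) followed each member most closely over the 14 libraries were Litaf and Mxd1 for Serpina3f (Pearson r 0.998 and 0.997), Itih4 and Litaf for Serpina3n (0.996 and 0.995), Nudt21 and Ifngr2 for Serpina3m (0.989 and 0.988), Rnf31 and Fam118b for Serpina3k (0.979 and 0.978), Mthfd2 and Lilr4b for Serpina3g (0.965 and 0.961), Chpf2 and Rnaseh1 for Serpina3i (both 0.950), and Ttc39a and Cryzl1 for Serpina3c (0.901 and 0.843). The 14 libraries share the step from saline to ConA. Over the 13 libraries without WT ConA replicate 4 the values for Serpina3c were 0.867 and 0.810, that of Lilr4b with Serpina3g was 0.99, and the others lay between 0.947 and 0.998. Itih4, an acute-phase plasma protein, went from 612 to 657 TPM (WT) and 423 to 548 TPM (KO) with saline to 1876 to 2141 and 2232 to 2472 TPM after ConA. Ttc39a, nearest to Serpina3c, was with saline at 2.32 to 3.59 TPM (WT) and 0.63 to 0.82 TPM (KO), and with ConA at 0.89 to 5.22 TPM (WT) and 1.05 to 2.21 TPM (KO).

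The signals known to drive these genes were followed by lists, to be read beside 22.0% of all genes called higher and 31.0% called lower in WT, and 33.9% and 30.7% in KO. Of 17 acute-phase signalling genes tested (of 20 listed), 10 were called higher and 2 lower in WT ConA over WT saline, and 13 were called higher in KO ConA over KO saline, where the other 4 were not called. The WT counts were 9 and 2 without WT ConA replicate 4. The median log2 fold changes of the list were 1.17 and 1.29. Cebpd, a transcription factor of the acute phase, rose by 2.85 in WT (adjusted p = 9.81e-07, limma) and by 2.54 in KO, and Socs3, the feedback inhibitor of STAT3 signalling, rose by 3.31 (adjusted p = 4.38e-06) and 4.38. The interleukin 1 receptor Il1r1 rose by 3.32 and 3.43, and the NF-kappaB subunit Rela by 1.85 and 2.04. Of the 10 interferon gamma signalling genes, 7 were called higher in WT, where the other 3 were not called, and 10 in KO, with medians of 1.13 and 2.40. The WT count was 6 without WT ConA replicate 4. Socs1, a feedback inhibitor of interferon signalling, rose by 6.05 in WT (adjusted p = 3.97e-07) and 5.90 in KO, and the transcription factors Irf1 (3.42 and 4.49) and Irf8 (4.64 and 4.78) rose in both.

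Growth hormone, known to regulate several liver serpins, was followed by 10 genes of its axis. In WT 1 was called higher and 4 lower, with or without WT ConA replicate 4, and in KO 4 higher and 3 lower, with medians of -0.19 and 0.04. With 10 genes, nothing is read from these counts beside the shares called over all genes. Igfals, which encodes a carrier of IGF1, fell by 3.86 in WT (adjusted p = 2.00e-06, limma) and by 3.62 in KO, and the receptor Ghr fell by 1.47 and 1.18. Cish, a feedback inhibitor of this pathway, rose by 1.04 and 1.47, and Igf1 fell by 0.78 and 1.24.

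Of 10 other clade A serpins tested (of 19 listed), 3 were called higher and 3 lower in WT after ConA, and 2 higher and 5 lower in KO, with medians of -0.22 and -0.29. Leaving out WT ConA replicate 4 made the WT counts 3 and 4. With 10 genes, nothing is read from these counts either. Serpina10, an inhibitor of coagulation factor Xa, rose by 2.26 in WT (adjusted p = 3.72e-06, limma) and 2.76 in KO. Serpina6, the carrier of glucocorticoids in plasma, fell by 2.04 and 2.01, and Serpina1d and Serpina1b fell by 1.36 and 0.82 in WT and by 0.52 and 0.56 in KO. Among 11 proteases tested (of 21 listed), 3 were called higher and 4 lower in WT, and 3 higher and 2 lower in KO, with medians of -0.49 and 0.04. Leaving out WT ConA replicate 4 made the WT counts 3 and 6, beside 20.0% and 30.5% of all genes. With 11 genes, nothing is read from these counts. Klkb1, plasma prekallikrein, fell by 3.16 in WT (adjusted p = 1.50e-06) and 3.45 in KO. Gzmb, the granzyme B of cytotoxic lymphocytes, rose by 2.22 and 2.71, from at most 0.61 TPM in any saline library to 2.88 to 11.1 TPM after ConA. Mmp9, a neutrophil metalloprotease, rose by 1.49 and 1.98, and the lysosomal protease Ctsb fell by 0.68 and 0.45. The genes named here from the lists kept their direction and call in WT without WT ConA replicate 4, with Irf8 at 4.98 and Socs1 at 6.29. Jak1 and Jak2 stand in more than 1 of these lists. In KO ConA against WT ConA no gene of these 5 lists was called by limma, with or without WT ConA replicate 4, and the medians were 0.36, 0.43, 0.23, -0.18 and 0.09 in the order given. At an unadjusted p under 0.05 were 8 of 17, 5 of 10, 1 of 10, 4 of 10 and 1 of 11 genes. The share of all genes at that level is not given, so nothing is read from these counts.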

How the data were processed

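RNA of 14 whole-liver samples was sequenced as single-end 50-base reads on a BGISEQ-500. The deposited values were TPM per gene, computed by the authors. The submitters' processing notes name Bowtie2, RSEM 1.3.1 and GRCm38.p6, and the study's methods name STAR and HTSeq, so how reads shared between paralogs were counted is uncertain. Depth is unknown, since TPM keeps none: each library sums to 1000000.

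The members and the gene lists were chosen with earlier results of these data known. Groups followed the labels. Each comparison was fitted on its 2 groups with limma 3.58.1 (R 4.3.3, eBayes with trend) on log2(TPM + 1), over genes that reached TPM 1 in a number of libraries no lower than the size of the smaller group. Adjusted p is Benjamini-Hochberg over all genes tested, called under 0.05. The fit was tested on simulated data.

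Named genes were the 7 members, for each the 2 genes outside the array with the highest Pearson r over 14 libraries, and from each list up to 4 genes, ranked by p in WT ConA against WT saline, of which 1 is not reported here. Coding sequences were aligned with MAFFT 7.526, and loop codons and start regions pairwise with Biopython 1.88. Alternatives were a pseudocount of 0.1, a minimum of TPM 5, no filter, rescaled libraries, all 14 libraries in the fit, a replicate block, an averaged WT saline pair and each library left out.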

Additional observations from a re-analysis of the deposited data

Results flagged for a closer look

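In 14 groups of 4 libraries (7 genes in WT ConA and KO ConA) the highest or lowest library was set against the rest by Dixon's ratio, with a critical value of 0.829. Chance flags about 1 in 20 groups. Both flags fell on WT ConA replicate 4: Serpina3c at 192 TPM (ratio 0.987) and Serpina3i at 127 TPM (ratio 0.978), against at most 9.68 and 17.8 TPM in the other 3 WT ConA libraries. Groups of 3 were not examined in this way.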

How the results depend on the processing

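In KO the 5 members at 1 TPM or more in both groups stayed called higher after ConA in each alternative. In WT the count called higher was 5 with no filter (Serpina3i lost) and 6 otherwise. Serpina3c was called in WT, as lower, only without WT ConA replicate 4 and under the replicate block, which leaves that library without a partner. Beyond counts, 350 of the members' log2 fold changes under alternatives kept direction and side of the threshold, 15 lost a call, 4 gained a call and 6 reversed. The reversals were in KO ConA against WT ConA without WT ConA replicate 4 (Serpina3c 0.55, Serpina3g 0.40, Serpina3i 0.65) and without KO ConA replicate 4 (Serpina3g 0.19), and for Serpina3k in KO saline against WT saline without KO saline replicate 1 (-0.0093) or 3 (-0.013). When 1 library was left out these values ran from -0.96 to 0.55 for Serpina3c, -0.43 to 0.40 for Serpina3g, -0.34 to 0.65 for Serpina3i and -0.013 to 0.38 for Serpina3k.

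Fewer results held in KO ConA against WT ConA. The 1 member called by limma (Serpina3f) became 0 with pseudocount 0.1, a minimum of TPM 5, no filter or rescaled libraries, where its unadjusted p stayed under 0.05, and 2 with all 14 libraries. Leaving out 1 library gave 0 to 1, and only without WT ConA replicate 1 was it kept. Over all these alternatives its adjusted p ran from 0.00888 to 0.141. The 45 genes called became 4 with no filter, 29 rescaled, 640 with all 14 libraries, 140 with the replicate block, and 5 (without KO ConA replicate 4) to 52 when 1 library was left out. Same-numbered libraries correlated at -0.19 to 0.41 in their deviations from group means. Libraries with different numbers were not compared in this way, so whether replicate numbers pair the samples cannot be told. The block changed no call of a member other than that of Serpina3c.

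In KO saline against WT saline a minimum of TPM 5 left 4 members tested, of which Serpina3c passed through WT saline alone. Nothing is read from their calls, since the members were selected on this contrast. The 2009 genes called became 584 with no filter, 332 with all 14 libraries and 49 with WT saline replicates 2 and 3 averaged, and ran from 45 (without WT saline replicate 3; 51 without replicate 2) to 2739 when 1 library was left out, with 286 and 640 without KO saline replicates 1 and 2. The cause was not tested. Depth is unknown, so the precision of the lowest values, Serpina3c and Serpina3i in KO saline, cannot be given.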
